A study of Homo sapiens with 12 samples.

Results

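The matrix metalloproteases (MMP), the ADAMTS proteases and the tissue inhibitors of metalloproteases (TIMP) were examined in sunitinib-resistant and parental renal cancer cell lines. The members are the 45 genes with these names in the count table of 45478 genes, 22 of them MMP, 19 ADAMTS and 4 TIMP genes, chosen by symbol alone. mRNA was sequenced from 786-O and A498, parental lines of human clear cell renal cell carcinoma (ccRCC), and from sunitinib-resistant 786-O and A498, called resistant 786-O and resistant A498 here, while 786-O and A498 alone stand for the parental lines. Resistance had been selected in increasing sunitinib, a receptor tyrosine kinase inhibitor, and the resistant cells grew stably at 4 μM (786-O) and 2 μM (A498) after 4 months or more than 20 passages. Each of the 4 groups has 3 libraries, all 4 were grown in DMEM with foetal bovine serum, and the labels give the treatment of the cells sequenced as none, while every title carries a code with the letters veh that the labels do not explain. Each resistant line is 1 selected culture, and whether replicate libraries came from separate cultures is not stated, so that p-values measure only the spread between these libraries.

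MMPs are zinc endopeptidases that are made as latent proenzymes and, once activated, cleave collagens, laminins, proteoglycans and many cell surface proteins. Most are secreted, while the membrane-type MMPs stay anchored at the cell surface, where MMP14 activates the secreted proenzyme of MMP2 with TIMP2 as an adaptor. ADAMTS proteases are secreted enzymes with a metalloprotease domain and thrombospondin repeats; their groups cleave proteoglycans, trim procollagens, or act on single substrates such as von Willebrand factor. TIMPs inhibit metalloproteases by binding the active site, and not every TIMP blocks every one of these enzymes.

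Total counts were 20042519 to 47972092 per library (median 37898338). The libraries labelled resistant A498 go against their label: across 19929 genes their log2 CPM (the count scaled to the normalized library size) correlated with those of resistant 786-O at a median r of 0.982, with 786-O at 0.951 and with A498 at 0.870. Their values are therefore given beside both A498 and 786-O. Replicate 2 of resistant 786-O stood apart. The SD of its log2 deviations from the mean of the other replicates of its group was 0.295, against 0.169 and 0.176 for replicates 1 and 3. The batch field of the labels differs between all 4 groups, and batch and condition therefore cannot be told apart. Of 15 kidney tubule and ccRCC markers, 11 or 12 reached 1 CPM in each group, with NDUFA4L2 under 1 CPM in every group, CA9 under 1 CPM in all but A498 and LRP2 at 0 counts in 786-O and A498. None of 6 T cell markers did so in any group (summed 0 to 0.654 CPM). The 6 macrophage markers summed to 0.569 to 2.41 CPM and the 6 endothelial markers to 0.181 to 2.75 CPM. The 7 fibroblast markers, which include collagens and lumican, summed to 7.11 to 7.61 CPM in 786-O, 11.2 to 11.8 in resistant 786-O, 51 to 62.8 in A498 and 25.6 to 27.9 in resistant A498. Of them, 2, 2, 1 and 4 reached 1 CPM in this order, and in A498 this was COL1A1, with a mean of 55.4 CPM. The part of these markers in the results was not tested. A lower count of a gene can come from fewer cells with it or from less RNA per cell, and the bulk libraries cannot tell these apart.

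A mean of at least 1 CPM was reached by 21 of the 45 members in 786-O, 23 in resistant 786-O, 25 in A498 and 23 in resistant A498. This level was reached by 28 members in at least 1 group and by 17 in every group. Per kilobase of exon, the scale on which genes can be compared, MMP14 was the most abundant member in 786-O (131 CPM per kilobase), followed by TIMP1 (92.8), ADAMTS1 (37.4), TIMP2 (35.7) and MMP24 (20.1). In A498 the top 3 were MMP14 (114), TIMP1 (109) and TIMP2 (108), and in resistant 786-O TIMP1 (106), MMP14 (93.3) and TIMP2 (70.9). In resistant A498 TIMP1 (108) and TIMP2 (73.9) stood above MMP14 (57.1). The 12 members with too few counts to be tested were MMP3, MMP8, MMP12, MMP20, MMP26, MMP27, ADAMTS4, ADAMTS8, ADAMTS17, ADAMTS19, ADAMTS20 and TIMP3. None of these had more than 11 counts in any library, and MMP26 had 0 in all.

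**Figure D1:**
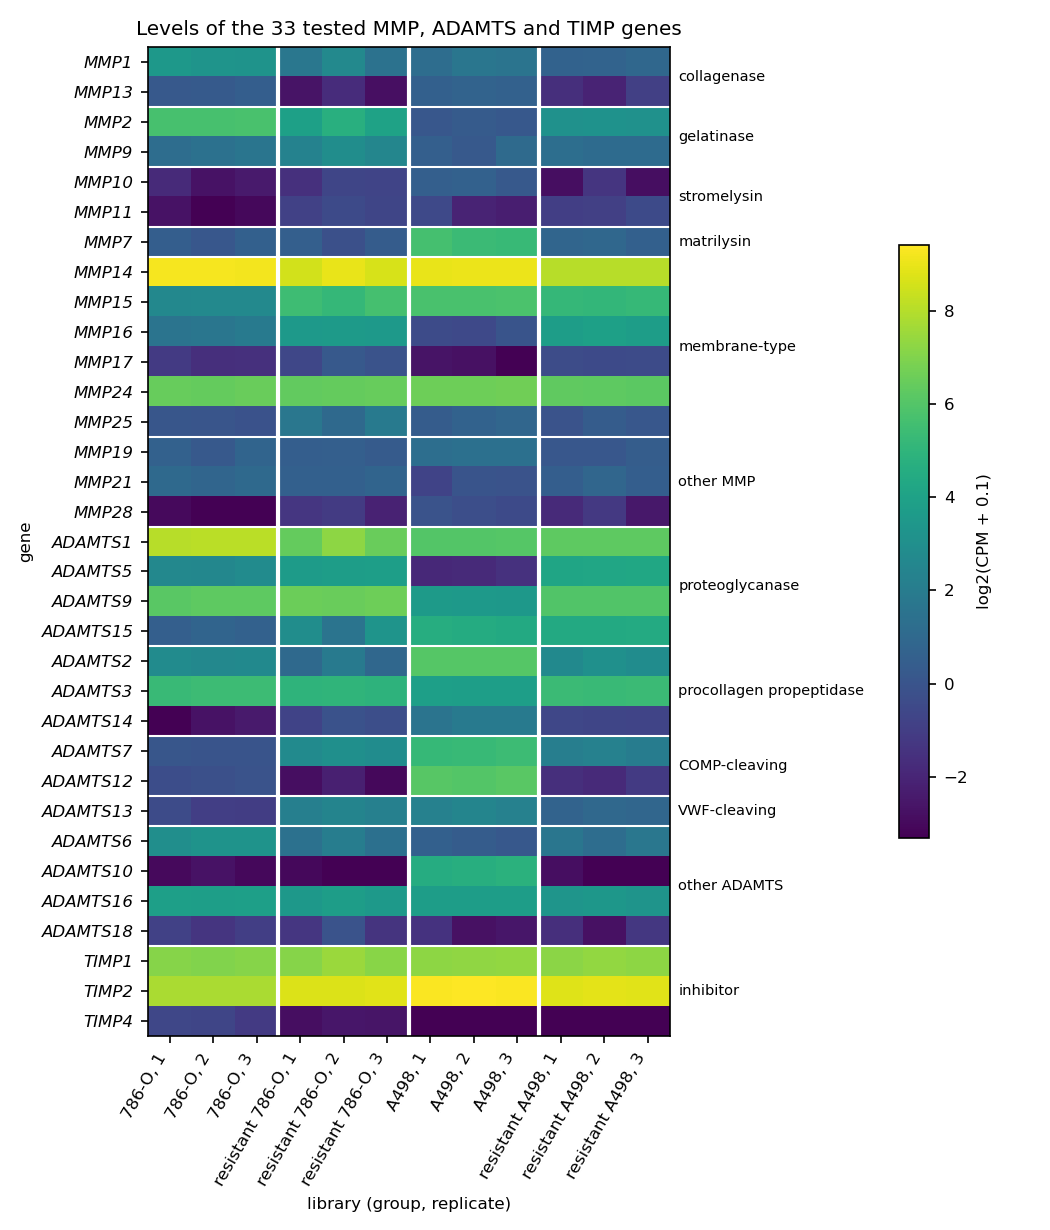
Heat map of log2(CPM + 0.1) of the 33 tested members (rows, grouped by role) in the 12 libraries (columns, 3 per group). MMP14, TIMP1 and TIMP2 are bright in every library, MMP7, ADAMTS2, ADAMTS7, ADAMTS10 and ADAMTS12 are brightest in A498, and MMP2 and ADAMTS1 are brightest in 786-O.

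Promoter sequences were matched in RefSeq's table (GRCh38.p14) for 26 of the 45 members; those of MMP1, MMP2, MMP3, MMP9, MMP12, MMP13, MMP16, MMP17, MMP19, MMP25, MMP28, ADAMTS1, ADAMTS4, ADAMTS5, ADAMTS8, ADAMTS9, ADAMTS15, ADAMTS16 and TIMP2 had no entry. The 150 bases before the start are shown for 4 members that were highest in A498 (MMP7, MMP10, ADAMTS10, ADAMTS12) and for 3 expressed in every group (MMP14, MMP15, TIMP1). They lie at chr11:102530748-102530897 (minus strand, MMP7), chr11:102780629-102780778 (minus, MMP10), chr19:8610716-8610865 (minus, ADAMTS10), chr5:33891991-33892140 (minus, ADAMTS12), chr14:22836435-22836584 (plus, MMP14), chr16:58025604-58025753 (plus, MMP15) and chrX:47582286-47582435 (plus, TIMP1). Capitals mark matches to TGAGTCA or its reverse complement TGACTCA, the site of AP-1 (dimers of FOS and JUN proteins), and to the TATA-box letters TATAAA or their reverse complement TTTATA.
MMP7: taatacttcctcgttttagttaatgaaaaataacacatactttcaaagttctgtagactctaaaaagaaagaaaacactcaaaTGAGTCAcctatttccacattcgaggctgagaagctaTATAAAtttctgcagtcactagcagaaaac
MMP10: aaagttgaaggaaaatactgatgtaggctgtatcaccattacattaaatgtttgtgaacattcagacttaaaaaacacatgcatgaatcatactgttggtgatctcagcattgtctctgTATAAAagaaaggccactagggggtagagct
ADAMTS10: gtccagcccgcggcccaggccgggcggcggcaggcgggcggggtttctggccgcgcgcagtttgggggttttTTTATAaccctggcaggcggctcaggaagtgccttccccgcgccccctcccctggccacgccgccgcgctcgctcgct
ADAMTS12: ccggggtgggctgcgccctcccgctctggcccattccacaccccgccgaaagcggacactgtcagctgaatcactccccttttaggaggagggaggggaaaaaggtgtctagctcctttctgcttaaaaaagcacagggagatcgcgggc
MMP14: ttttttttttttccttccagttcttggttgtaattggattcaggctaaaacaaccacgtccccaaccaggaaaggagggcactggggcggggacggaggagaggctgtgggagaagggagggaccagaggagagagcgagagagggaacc
MMP15: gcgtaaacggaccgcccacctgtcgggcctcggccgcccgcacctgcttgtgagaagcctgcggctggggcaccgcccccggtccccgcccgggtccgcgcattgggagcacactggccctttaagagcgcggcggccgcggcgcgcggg
TIMP1: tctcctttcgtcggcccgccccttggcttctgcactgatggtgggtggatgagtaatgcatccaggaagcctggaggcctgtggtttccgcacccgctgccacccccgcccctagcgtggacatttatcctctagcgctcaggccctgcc
The AP-1 letters stood 67 bases before the start of MMP7 and in no other of the 26 members within 250 bases, against 4.2% of all 35116 promoters. The TATA letters stood 30 bases before the start of MMP7, 31 before that of MMP10 and, on the other strand, 78 before that of ADAMTS10. They were present in 7 of the 26 members (ADAMTS10, MMP7, MMP8, MMP10, MMP20, MMP21 and MMP26) and in 10.7% of all promoters. In the 250 bases before the start, MMP7 and MMP10 had a GC content of 33.6% and 34.4%, while ADAMTS10 had 78.4%, ADAMTS12 68.4%, MMP14 56.8%, MMP15 74.8% and TIMP1 64.8%, against a median of 58% over all promoters. These matches are descriptions of the letters in these windows.

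The labels set each resistant line against a parental line. In resistant 786-O against 786-O, 26 of the 33 tested members passed an adjusted p of 0.05 (15 higher, 11 lower), 78.8% of those tested, 21 of them with a change over 2-fold. Over all 19929 genes tested, 68.5% passed, 35% higher and 33.5% lower, and 22% with a change over 2-fold. The median log2 fold change was 0.195 over the members and 0.0331 over all genes. In resistant A498 against A498, 24 members (72.7%) passed (8 higher, 16 lower), 19 over 2-fold, against 72.7% of all genes (36.3% higher, 36.4% lower, 30.8% over 2-fold). The median was -0.452 over the members and -0.00412 over all genes. When set against 786-O, resistant A498 had 23 members (69.7%) that passed (12 higher, 11 lower), 19 over 2-fold, against 63.6% of all genes (31.6% higher, 32.1% lower, 20% over 2-fold). The medians were -0.0384 and 0.00293. The comparisons of resistant 786-O and of resistant A498 with 786-O share the 786-O libraries, and their values are set side by side below without a measure of agreement.

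The parental lines differed in 30 of the 33 members (13 higher in 786-O, 17 lower), 24 of them over 2-fold, against 74.2% of all genes (38.2% higher, 36.1% lower, 31.9% over 2-fold). The resistant groups differed from each other in 21 members (7 higher in resistant A498, 14 lower), against 46.1% of all genes (23% in each direction). The change of resistant A498 from A498 differed from that of resistant 786-O from 786-O for 26 members, against 68.3% of all genes. As shares of the tested members these counts were 90.9%, 63.6% and 78.8%.

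**Figure D2:**
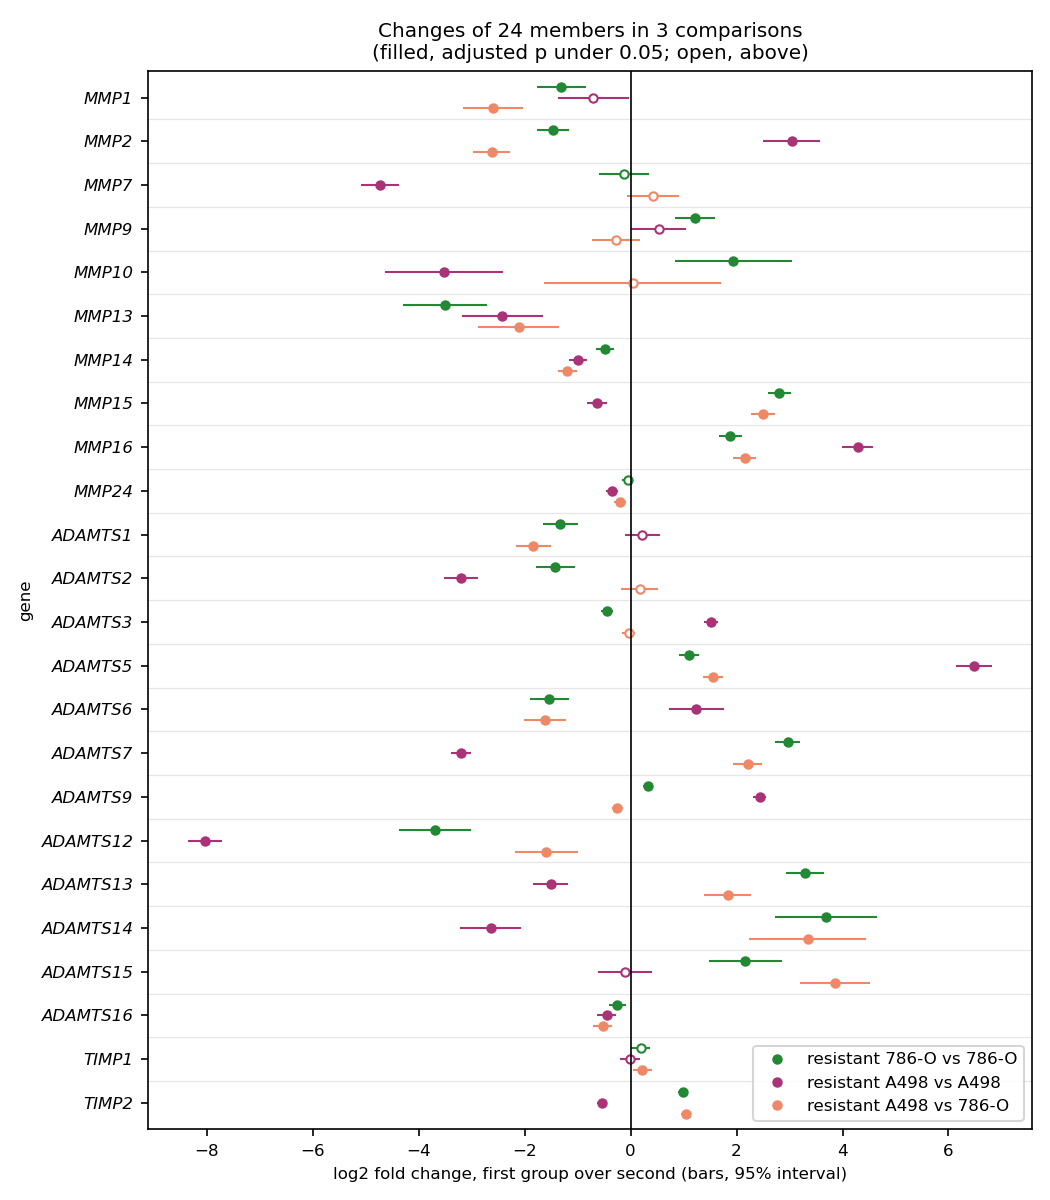
Log2 fold change (horizontal axis, bars for the 95% interval) of 24 members in 3 comparisons, filled where the adjusted p is under 0.05. MMP13 and MMP14 lie to the left in all 3 comparisons and MMP16 and ADAMTS5 to the right in all 3, while MMP15, ADAMTS7, ADAMTS13 and TIMP2 lie to the right against 786-O and to the left against A498.

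All 6 membrane-type MMPs passed the filter. In resistant 786-O against 786-O, 4 of them were higher and 1 lower, against 35% and 33.5% of all genes. In resistant A498, 3 were higher and 2 lower against 786-O (all genes 31.6% and 32.1%). Against A498, 2 were higher and 3 lower (all genes 36.3% and 36.4%). MMP14 (MT1-MMP, chr14:22836560-22849041 in GRCh38) stood at 611, 601 and 597 CPM in the 3 libraries of 786-O, 374, 511 and 409 in resistant 786-O, 521, 526 and 530 in A498 and 262, 268 and 262 in resistant A498. Every library of resistant 786-O and resistant A498 was below every library of both parental lines. The log2 fold change was -0.49 ± 0.08 (SE) in resistant 786-O against 786-O (edgeR quasi-likelihood test, adjusted p = 7.2e-05), -0.99 ± 0.08 in resistant A498 against A498 (adjusted p = 2.8e-08) and -1.19 ± 0.08 against 786-O (adjusted p = 7.5e-09). The small difference between 786-O and A498, a log2 fold change of 0.20 ± 0.08 with an adjusted p of 0.034, did not pass with DESeq2 (adjusted p = 0.15) or with library size alone (0.18), nor without any single library of either group (adjusted p 0.053 to 0.073).

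MMP15 (MT2-MMP), another transmembrane protease of this class, ran the other way against 786-O. Its level was 6.08, 6.39 and 6.28 CPM in 786-O and 44.4, 36.2 and 50.8 in resistant 786-O, a 7.01-fold rise (log2 2.81 ± 0.10, adjusted p = 8.1e-12). It was 53.9, 54.8 and 56.6 CPM in A498 and 35.3, 34.1 and 37 in resistant A498. The resistant A498 libraries were thus far above 786-O (log2 2.51 ± 0.10, adjusted p = 3.9e-11) and below A498 (log2 -0.63 ± 0.09, adjusted p = 1.6e-05). 786-O alone held little of this transcript.

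MMP16 (MT3-MMP) was low in both parental lines and higher in both resistant groups. It had 2.92, 3.08 and 3.53 CPM in 786-O, 0.666, 0.604 and 0.883 in A498, 11.3, 12.3 and 11.5 in resistant 786-O and 13.5, 15.3 and 13.8 in resistant A498. The groups did not overlap. The rise was 3.69-fold in resistant 786-O (log2 1.88 ± 0.10, adjusted p = 5.5e-10), and resistant A498 stood 19.8-fold above A498 (log2 4.29 ± 0.14, adjusted p = 6.2e-13) and 4.48-fold above 786-O (log2 2.15 ± 0.10, adjusted p = 1.7e-10).

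MMP24 (MT5-MMP), best known from the nervous system, was nearly level. It stood at 88.2, 84.7 and 91.6 CPM in 786-O, 81.1, 84.8 and 89.1 in resistant 786-O, 96.5, 98.5 and 99.7 in A498 and 79.8, 78 and 73.2 in resistant A498. The difference of resistant 786-O from 786-O was -0.05 on the log2 scale (95% interval -0.16 to 0.05), and 0.09 when scaled by library size alone. Resistant A498 was lower than A498 by a log2 fold change of -0.35 ± 0.05 (adjusted p = 2e-05) and lower than 786-O by -0.19 ± 0.05 (adjusted p = 0.0039), the latter lost with library size alone (adjusted p = 0.47) and without resistant A498 replicate 3 (0.062). These counts are uncertain, since 806 bp of MMP24 exons (18.4%) overlap MMP24OS on the other strand, which had 1031 to 3015 counts.

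The library kit keeps the strand, and the study's methods state a strand setting for the counting. In the counts, however, 189 long non-coding RNAs with at least 99% of their exons under those of a protein-coding gene on the other strand carried a median of 170% of that gene's counts per base (quartiles 81.1% and 250%). Which setting made the deposited counts is not settled, and MMP24 is uncertain because its reads and those of MMP24OS may not be separated in their shared exons. The same holds for MMP25 and MMP25-AS1 (1454 bp, 30.6% of MMP25 exons), MMP9 and SLC12A5-AS1 (430 bp, 18.4%), MMP19 and TMEM198B (821 bp, 17.6%) and, for a small share, TIMP2 and a long non-coding RNA (367 bp, 5.9%). MMP21 shares 136 bp (4%) with EDRF1, which had 268 to 1598 counts against 17 to 88 for MMP21. Shared exons also exist for MMP1 and WTAPP1 (223 bp, 8.1%, WTAPP1 at 7 to 72 counts) and for TIMP4 and SYN2 (170 bp, 14.2%, SYN2 at 0 to 6 counts).

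The GPI-anchored MMP17 and MMP25 were scarce. MMP25, a leukocyte protease, rose from a mean of 0.9 ± 0.0686 CPM (SD, n = 3) in 786-O to 2.93 ± 0.844 in resistant 786-O (log2 1.71 ± 0.22, adjusted p = 6.9e-06) and was at 1.47 ± 0.271 in A498 and 1.02 ± 0.17 in resistant A498. MMP17 stayed under 1 CPM on average in every group and rose in resistant 786-O (log2 1.61 ± 0.31, adjusted p = 0.00034). In A498 it had 3 counts over the group, against 48 in resistant A498, a ratio of 18.2 with a 95% counting interval of 5.86 to 91.2. Counting intervals and floors given here cover counting error only.

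The secreted gelatinases, which digest denatured collagen and basement membrane, moved in opposite directions in resistant 786-O against 786-O. MMP2, the substrate of MMP14, stood at 52.9, 51.8 and 54.4 CPM in 786-O and 15.3, 26.5 and 16.2 in resistant 786-O. It was 0.984, 1.16 and 1.03 CPM in A498 and 8.57, 8.85 and 8.49 in resistant A498. All 4 groups were separate, in the order 786-O, resistant 786-O, resistant A498 and A498. MMP2 fell in resistant 786-O (log2 -1.46 ± 0.14, adjusted p = 3.6e-07; -1.76 without replicate 2, which lay nearest to 786-O), while resistant A498 was above A498 (log2 3.04 ± 0.25, adjusted p = 3.7e-08) and below 786-O (log2 -2.62 ± 0.16, adjusted p = 2.6e-09).

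MMP9 had 2.29, 2.56 and 3 CPM in 786-O, 5, 7.63 and 5.69 in resistant 786-O, 1.36, 1.07 and 2.02 in A498 and 2.35, 2.06 and 2.07 in resistant A498. It rose 2.34-fold in resistant 786-O (log2 1.21 ± 0.18, adjusted p = 2.5e-05), whose libraries were above all others. Resistant A498 was not separable from 786-O (log2 -0.28, 95% interval -0.73 to 0.18) and did not pass against A498 (log2 0.53 ± 0.24, adjusted p = 0.062), although it did with library size alone (0.036) and without A498 replicate 3 (0.012).

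The collagenases, which cut fibrillar collagen, were both lower in resistant 786-O. MMP1 had 11, 9.62 and 9.34 CPM in 786-O, 3.19, 6.23 and 2.73 in resistant 786-O, 2.23, 3.07 and 2.87 in A498 and 1.53, 1.58 and 1.84 in resistant A498. 786-O stood above every other library. The fall was 2.47-fold in resistant 786-O (log2 -1.31 ± 0.22, adjusted p = 7.7e-05; -1.75 without replicate 2), and resistant A498 was 6.05-fold below 786-O (log2 -2.59 ± 0.27, adjusted p = 6.4e-07). Against A498 the log2 fold change of -0.70 ± 0.31 had an adjusted p of 0.055, with calls under DESeq2 (0.024) and without resistant 786-O replicate 2 (0.0006). That replicate is in neither group compared and enters through the spread that the model shares over all groups.

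MMP13 was scarcer. It had 1.1, 1.14 and 1.31 CPM in 786-O, 0.0613, 0.206 and 0.0437 in resistant 786-O, 1.42, 1.58 and 1.43 in A498 and 0.224, 0.144 and 0.43 in resistant A498. Both resistant groups were below both parental lines in every library. The log2 fold change was -3.50 ± 0.37 in resistant 786-O (adjusted p = 7.6e-07; -4.40 without replicate 2), -2.42 ± 0.36 in resistant A498 against A498 (adjusted p = 2.1e-05) and -2.11 ± 0.36 against 786-O (adjusted p = 1e-04).

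MMP1 and MMP13 belong to the MMP cluster of chromosome 11 (GRCh38, chr11:102520508-102955732), which holds MMP7, MMP20, MMP27, MMP8, MMP10, MMP1, MMP3, MMP12 and MMP13 in this order. Its members were not highest in the same cells. MMP7 (matrilysin, an epithelial protease that also cleaves cell surface proteins), at the end of the cluster next to MMP20, had 50.2, 41.7 and 38.2 CPM in A498. It had 1.29, 0.983 and 1.38 CPM in 786-O, 1.37, 0.756 and 1.2 in resistant 786-O and 1.71, 1.82 and 1.41 in resistant A498. The A498 mean was 35.6-fold above 786-O (log2 fold change of 786-O over A498 -5.15 ± 0.16, adjusted p = 4.2e-13) and 26.3-fold above resistant A498 (log2 -4.72 ± 0.17, adjusted p = 2.1e-12). In resistant 786-O against 786-O it was -0.13 (95% interval -0.60 to 0.34), with the sign turned by library size alone (0.02) and by leaving out resistant 786-O replicate 2 (0.07).

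MMP10 (stromelysin 2, an activator of other MMPs) was highest in A498 too, but low throughout. It had 1.36, 1.44 and 1.1 CPM in A498, 0.184, 0.0517 and 0.0887 in 786-O, 0.245, 0.527 and 0.503 in resistant 786-O and 0.0373, 0.287 and 0.0391 in resistant A498. The A498 libraries lay above all others. It rose in resistant 786-O (log2 1.94 ± 0.52, adjusted p = 0.0038), and resistant A498 was below A498 (log2 -3.52 ± 0.52, adjusted p = 2.1e-05; -4.93 without resistant A498 replicate 2). Against 786-O the resistant A498 libraries overlapped (log2 0.04, 95% interval -1.63 to 1.71; -1.38 without resistant A498 replicate 2). MMP3, at 0 counts in 786-O, had 14 counts over the A498 libraries, at least 6.83-fold more at the floor of 3 counts over a group.

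**Figure D3:**
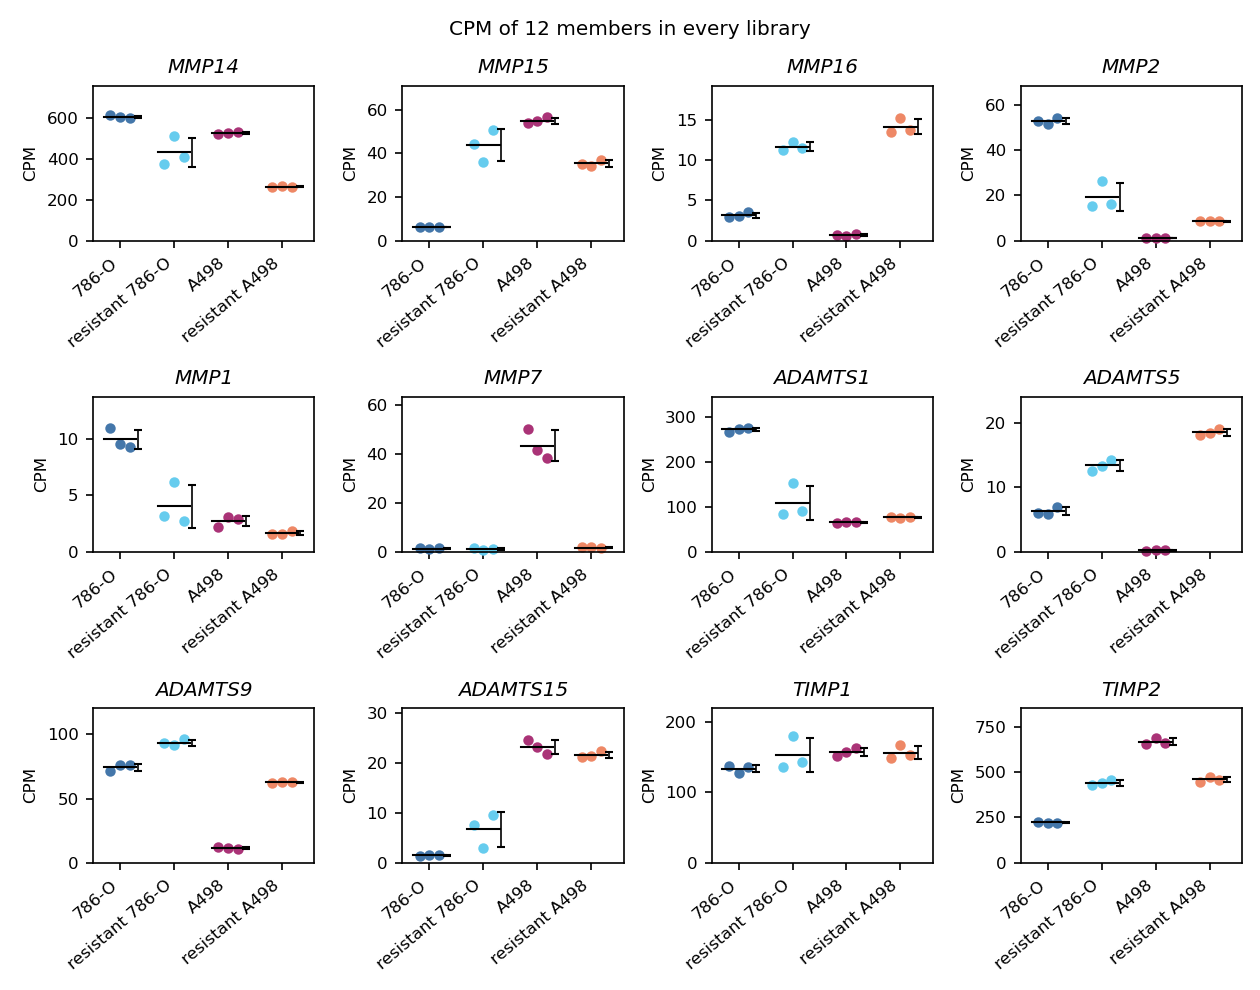
CPM (vertical axis) of 12 members in each library, with points for replicates 1 to 3 from left to right, a line for the mean and a bar for the SD (n = 3). MMP14, MMP2, MMP1 and ADAMTS1 are highest in 786-O, MMP7 is high in A498 alone, and MMP16 and ADAMTS5 are highest in the resistant groups.

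Of the ADAMTS proteases that cleave proteoglycans such as versican and aggrecan, 4 of 7 were tested. In resistant 786-O 3 of these were higher and 1 lower, against 35% and 33.5% of all genes. In resistant A498, 2 were higher and 2 lower against 786-O (all genes 31.6% and 32.1%). Against A498, 2 were higher and 0 lower (all genes 36.3% and 36.4%). ADAMTS1 had 268, 275 and 276 CPM in 786-O, 84.1, 153 and 90.6 in resistant 786-O, 65, 65.6 and 66.5 in A498 and 76.5, 75.8 and 77.9 in resistant A498. Every 786-O library was above all others. ADAMTS1 fell in resistant 786-O (log2 -1.32 ± 0.15, adjusted p = 1.9e-06; -1.65 without replicate 2), and resistant A498 was lower than 786-O (log2 -1.83 ± 0.16, adjusted p = 8.8e-08). Against A498 the difference was 0.22 ± 0.16 on the log2 scale (adjusted p = 0.21), although the libraries did not overlap, and it passed without resistant 786-O replicate 2 (0.23, adjusted p = 3.6e-06). That replicate is in neither of these groups, but the model shares its estimate of spread over all groups.

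ADAMTS5, the neighbour of ADAMTS1 on chromosome 21 (chr21:26917922-26967088 against chr21:26835755-26845409, both on the minus strand), moved the other way in resistant 786-O. It had 6, 5.82 and 6.99 CPM in 786-O, 12.6, 13.4 and 14.3 in resistant 786-O, 0.174, 0.186 and 0.257 in A498 and 18.1, 18.5 and 19.1 in resistant A498. The groups were all separate, with A498 lowest and resistant A498 highest. The log2 fold change was 1.10 ± 0.09 in resistant 786-O (adjusted p = 3.5e-08), 1.56 ± 0.09 in resistant A498 against 786-O (adjusted p = 1e-09) and 6.48 ± 0.16 against A498 (adjusted p = 2.8e-14).

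ADAMTS15 had 1.37, 1.6 and 1.46 CPM in 786-O, 7.48, 2.86 and 9.56 in resistant 786-O, 24.6, 23.2 and 21.7 in A498 and 21.1, 21.3 and 22.3 in resistant A498. Of the 4 tested members of this group, it is the 1 for which resistant A498 and A498 overlapped (log2 -0.11, 95% interval -0.62 to 0.40). It rose in resistant 786-O (log2 2.17 ± 0.32, adjusted p = 2.6e-05; 2.52 without replicate 2), and resistant A498 was above 786-O (log2 3.86 ± 0.31, adjusted p = 4.3e-08). Its neighbour on chromosome 11, ADAMTS8, had at most 4 counts in any library.

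ADAMTS9 had 71.1, 76 and 75.9 CPM in 786-O, 93, 91.5 and 96.2 in resistant 786-O, 12.1, 11.6 and 10.9 in A498 and 62.1, 62.7 and 62.7 in resistant A498. Only A498 held little of it. The rise in resistant 786-O was small (log2 0.33 ± 0.05, adjusted p = 1.8e-05), resistant A498 was above A498 (log2 2.44 ± 0.06, adjusted p = 1.5e-14), and its difference from 786-O (log2 -0.25 ± 0.05, adjusted p = 0.00036) was lost with library size alone (adjusted p = 0.093).

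The procollagen propeptidases, which remove the amino-terminal propeptide of fibrillar procollagens, were all tested. ADAMTS2 had 6.94, 6.03 and 6.52 CPM in 786-O, 1.98, 3.55 and 1.81 in resistant 786-O, 67.9, 66.1 and 67.2 in A498 and 6.45, 8.33 and 7.36 in resistant A498. It was high in A498 alone. ADAMTS2 fell in resistant 786-O (log2 -1.42 ± 0.17, adjusted p = 3.9e-06), resistant A498 was below A498 (log2 -3.19 ± 0.15, adjusted p = 4.9e-11), and resistant A498 and 786-O overlapped (log2 0.18, 95% interval -0.17 to 0.53).

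ADAMTS3, which also processes the growth factor VEGFC, showed the opposite order of the parental lines. It had 39.6, 43 and 43.2 CPM in 786-O, 31.1, 32 and 29.7 in resistant 786-O, 14.7, 14.1 and 14 in A498 and 41.7, 40.1 and 40.7 in resistant A498. It fell in resistant 786-O (log2 -0.44 ± 0.05, adjusted p = 3e-06), and resistant A498 was above A498 (log2 1.52 ± 0.06, adjusted p = 4.8e-12). Its value against 786-O was -0.04 (95% interval -0.15 to 0.08), and 0.11 with library size alone.

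ADAMTS14 was scarce outside A498. It had 0, 0.0517 and 0.0887 CPM in 786-O, 0.49, 0.824 and 0.722 in resistant 786-O, 2.87, 3.53 and 3.68 in A498 and 0.559, 0.526 and 0.509 in resistant A498. It rose in resistant 786-O (log2 3.68 ± 0.45, adjusted p = 3.7e-06; 4.51 without 786-O replicate 3), and resistant A498 was above 786-O (log2 3.34 ± 0.51, adjusted p = 4.2e-05; 4.17 without 786-O replicate 3) and below A498 (log2 -2.64 ± 0.27, adjusted p = 3.6e-07).

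ADAMTS7 and ADAMTS12, which degrade cartilage oligomeric matrix protein, were both highest in A498 and differed elsewhere. ADAMTS7 had 0.973, 0.905 and 0.91 CPM in 786-O, 6.76, 7.95 and 7.13 in resistant 786-O, 37.7, 39.1 and 42.1 in A498 and 4.21, 4.74 and 4.03 in resistant A498. The groups were separate. It rose in resistant 786-O (log2 2.96 ± 0.11, adjusted p = 1.2e-11), and resistant A498 was above 786-O (log2 2.21 ± 0.13, adjusted p = 1.2e-09) and below A498 (log2 -3.20 ± 0.09, adjusted p = 1.4e-13). ADAMTS7 has pseudogene copies, and its counts are uncertain to that extent.

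ADAMTS12 had 69.4, 65.6 and 70.5 CPM in A498, 0.71, 0.776 and 0.865 in 786-O, 0.0409, 0.114 and 0.0219 in resistant 786-O and 0.224, 0.191 and 0.352 in resistant A498. The A498 libraries were far above all others. Against A498 the log2 fold change was -8.03 ± 0.15 in resistant A498 (adjusted p = 1.6e-15) and -6.44 ± 0.12 in 786-O (adjusted p = 8.9e-16). ADAMTS12 was also lower than 786-O in resistant 786-O (log2 -3.69 ± 0.32, adjusted p = 8.8e-08; -4.49 without replicate 2) and in resistant A498 (log2 -1.59 ± 0.28, adjusted p = 0.00013).

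ADAMTS10, which acts on fibrillin microfibrils, was detected in A498 almost alone. It had 23.3, 25.4 and 27.8 CPM in A498, 0.0263, 0.0517 and 0.0222 in 786-O, 0.0204, 0 and 0 in resistant 786-O and 0.0373, 0 and 0 in resistant A498. The 3 A498 libraries held 2106 counts, against 1 in resistant A498 and 4 in 786-O, ratios of 1850 (95% counting interval 332 to 73300) and 770 (300 to 2830). Its promoter, shown above, is GC-rich, as are those of ADAMTS2 (80%) and ADAMTS7 (80.8%), while MMP7 is not. The promoters of ADAMTS3, which was lowest in A498, and of MMP24, which was nearly level, are GC-rich too (75.2% and 77.6%).

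ADAMTS6, a relative of ADAMTS10, had 7.81, 9.36 and 9.38 CPM in 786-O, 2.59, 4.14 and 2.47 in resistant 786-O, 1.39, 1.21 and 1.03 in A498 and 3.13, 2.25 and 3.21 in resistant A498. 786-O stood above every other library. ADAMTS6 fell in resistant 786-O (log2 -1.53 ± 0.17, adjusted p = 1.5e-06), resistant A498 was below 786-O (log2 -1.62 ± 0.19, adjusted p = 2.4e-06) and above A498 (log2 1.24 ± 0.24, adjusted p = 0.00032), and the resistant groups overlapped.

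ADAMTS13, the protease of von Willebrand factor, had 0.658, 0.414 and 0.399 CPM in 786-O, 4.51, 5.22 and 4.64 in resistant 786-O, 4.69, 5.44 and 4.78 in A498 and 1.57, 1.91 and 1.76 in resistant A498. 786-O was lowest. It rose in resistant 786-O (log2 3.29 ± 0.17, adjusted p = 3.1e-10), and resistant A498 was above 786-O (log2 1.83 ± 0.20, adjusted p = 1.6e-06) and below A498 (log2 -1.51 ± 0.15, adjusted p = 3.8e-07).

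ADAMTS16 hardly varied. It had 14.4, 14.2 and 14.4 CPM in 786-O, 11.2, 13.6 and 11.5 in resistant 786-O, 13.5, 13.7 and 13.7 in A498 and 9.88, 10.6 and 9.55 in resistant A498. Resistant A498 was lower than A498 (log2 -0.45 ± 0.08, adjusted p = 0.00021) and 786-O (log2 -0.52 ± 0.08, adjusted p = 5.5e-05). The log2 fold change of -0.25 ± 0.08 in resistant 786-O (adjusted p = 0.011) was lost with library size alone (adjusted p = 0.23) and without resistant 786-O replicate 1 (0.083) or 3 (0.064).

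Among the inhibitors, TIMP1 and TIMP2 reached 1 CPM, and of these TIMP2 (chr17:78852977-78925387) varied more. It had 223, 221 and 221 CPM in 786-O, 426, 439 and 455 in resistant 786-O, 656, 688 and 659 in A498 and 446, 475 and 456 in resistant A498. 786-O was lowest and A498 highest, with the resistant groups overlapping between them. TIMP2 rose in resistant 786-O (log2 0.99 ± 0.04, adjusted p = 4.7e-11), and resistant A498 was above 786-O (log2 1.05 ± 0.04, adjusted p = 2.7e-11) and below A498 (log2 -0.54 ± 0.04, adjusted p = 1.7e-08). The resistant groups differed by 0.06 (95% interval -0.03 to 0.15).

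TIMP1, which also acts as a growth factor, was nearly level. It had 138, 128 and 136 CPM in 786-O, 136, 181 and 144 in resistant 786-O, 152, 157 and 164 in A498 and 149, 167 and 154 in resistant A498. The log2 fold change in resistant 786-O of 0.19 ± 0.08 had an adjusted p of 0.052 (0.06 on the log2 scale without replicate 2). It passed with library size alone (0.34, adjusted p = 0.002), without resistant 786-O replicate 1 (0.30, adjusted p = 0.0048) or 3 (0.26, adjusted p = 0.021), and without resistant A498 replicate 1 (0.21, adjusted p = 0.046) or 2 (0.21, adjusted p = 0.042). Resistant A498 differed from A498 by -0.01 (95% interval -0.19 to 0.17; 0.06 with library size alone) and from 786-O by 0.22 ± 0.08 (adjusted p = 0.031), a call lost without 786-O replicate 1 (0.05), 2 (0.11) or 3 (0.061) or resistant A498 replicate 2 (0.087).

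TIMP3 and TIMP4 were near the floor. TIMP4 had 58 counts over the 786-O libraries and 8 over those of resistant 786-O, and none was counted in either A498 group (0 counts). 786-O was thus at least 11.6-fold above resistant A498 and at least 13.2-fold above A498, and 8.24-fold (95% counting interval 3.92 to 20) above resistant 786-O. TIMP3, the matrix-bound inhibitor, had 31 counts in resistant 786-O, 1 in 786-O, 2 in resistant A498 and 0 in A498, a ratio of 27.3 (4.55 to 1110) of resistant 786-O over 786-O.

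The balance of inhibitor and protease transcripts was taken as a ratio of CPM per kilobase within each library. These are ratios of RNA, and protein levels or inhibition of the proteases were not tested. TIMP2 over MMP14 was 0.271, 0.274 and 0.275 in 786-O, 0.849, 0.64 and 0.829 in resistant 786-O, 0.937, 0.975 and 0.926 in A498 and 1.27, 1.32 and 1.29 in resistant A498. All 4 groups were separate. The mean rose 2.83-fold from 786-O to resistant 786-O and was 1.37-fold higher in resistant A498 than in A498, each with an exact two-sided permutation p of 0.1, the smallest that 3 against 3 libraries allow, as did all 20 ratio comparisons made. TIMP1 over MMP14 averaged 0.711 ± 0.0259 (SD, n = 3) in 786-O, 1.14 ± 0.0208 in resistant 786-O, 0.96 ± 0.0309 in A498 and 1.89 ± 0.0907 in resistant A498, and the summed TIMPs over the summed MMPs 0.756 ± 0.0139, 1.32 ± 0.04, 1.26 ± 0.0321 and 2.03 ± 0.08. On each of these ratios the libraries of either resistant group were above those of the line named in their label. MMP15 over MMP14 was 0.0113 ± 0.000379 in 786-O and 0.114 to 0.147 on average in the other 3 groups. MMP14 made up 76.5% ± 0.656 of the summed MMP level in 786-O, 69% ± 2.77 in resistant 786-O, 65.9% ± 0.819 in A498 and 63.6% ± 0.379 in resistant A498.

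**Figure D4:**
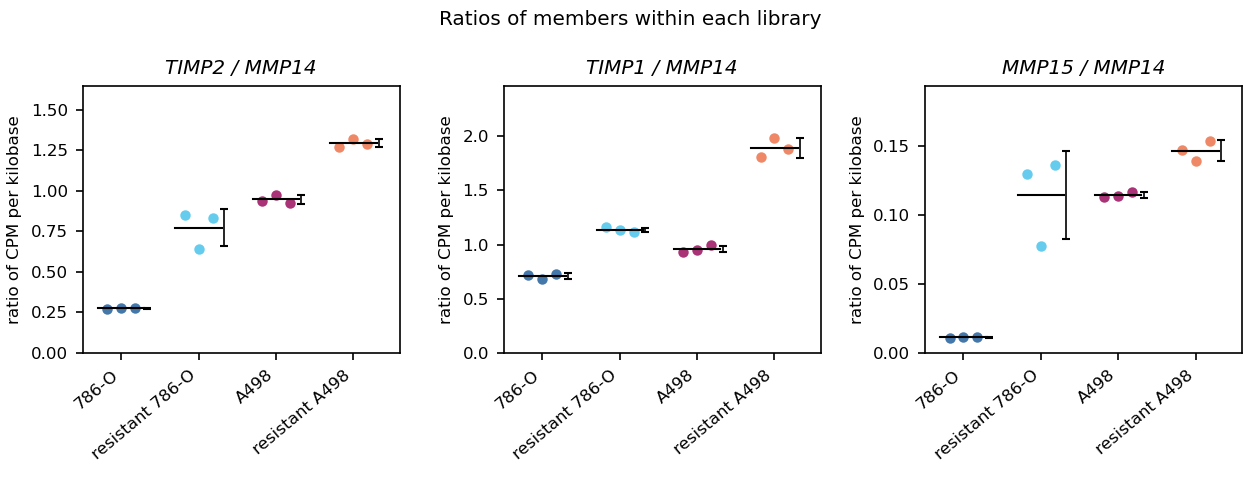
Ratios of CPM per kilobase (vertical axis) of TIMP2, TIMP1 and MMP15 to MMP14 in each library, with points for replicates 1 to 3 from left to right, a line for the mean and a bar for the SD (n = 3). TIMP2 over MMP14 runs from 0.271 to 0.275 in 786-O up to 1.27 to 1.32 in resistant A498, and MMP15 over MMP14 is lowest in 786-O.

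The other 8 tested members had means under 3 CPM in every group. MMP19 was higher in A498 (2.45 ± 0.121 CPM) than in resistant A498 (1.09 ± 0.142; log2 -1.16 ± 0.19, adjusted p = 4.3e-05) and did not pass in resistant 786-O (log2 -0.14, 95% interval -0.50 to 0.21). MMP21 was lower in A498 (0.741 ± 0.216 CPM) than in 786-O (1.86 ± 0.155, log2 of 786-O over A498 1.37 ± 0.22, adjusted p = 3.5e-05). Its counts may hold reads of EDRF1 from their shared exons. MMP28 (epilysin) had 37 counts in resistant 786-O, 14 in resistant A498 and 63 in A498, against 1 in 786-O, ratios of 32.6 (95% counting interval 5.49 to 1320), 23.3 (3.54 to 984) and 92.2 (15.9 to 3700). MMP11 had 73 counts in resistant 786-O and 36 in resistant A498 against 3 in 786-O, ratios of 21.4 (7.04 to 106) and 19.9 (6.3 to 101). A498 held 27 counts of MMP11, 21 of them in replicate 1, a ratio of 13.2 (4.05 to 67.8) over 786-O. Resistant A498 did not pass against A498 (log2 0.63 ± 0.51, adjusted p = 0.28) but did without A498 replicate 1 (1.96, adjusted p = 0.0047). ADAMTS18 stayed between 0.127 and 0.479 CPM on average and passed in none of the pairwise comparisons.

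Other genes of the same system were taken as lists, whose counts stand beside the shares of all genes given above. Of the activators of latent metalloproteases, 9 of 12 genes were tested: 5 were higher and 3 lower in resistant 786-O, 3 higher and 3 lower in resistant A498 against 786-O, and 4 higher and 4 lower against A498 (medians 0.526, 0.142 and -0.005). The proprotein convertases FURIN and PCSK7, which cut membrane-type proenzymes, rose in resistant 786-O by log2 0.57 ± 0.05 (adjusted p = 1.3e-07) and 0.60 ± 0.08 (6.3e-06). The urokinase PLAU and its receptor PLAUR fell by log2 -0.32 ± 0.10 (0.013) and -0.73 ± 0.24 (0.015), and in resistant A498 against 786-O stood at -1.04 ± 0.11 (6.5e-07) and -1.67 ± 0.26 (4.3e-05). PLAU was at 3.75 ± 0.288 CPM in A498 and 116 ± 2.82 in resistant A498.

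Of the inhibitors other than TIMPs, 5 of 9 tested genes were higher and 1 lower in resistant 786-O, 4 and 4 in resistant A498 against 786-O, and 0 and 7 against A498 (medians 0.18, 0.044 and -1.54). PAPLN, an ADAMTS-related inhibitor, fell in resistant 786-O (log2 -1.43 ± 0.14, adjusted p = 5.3e-07). Of the ADAM family, 6 of 10 tested genes were higher and 4 lower in resistant 786-O, 6 and 2 in resistant A498 against 786-O, and 4 and 6 against A498 (medians 0.462, 0.445 and -1.18). The sheddases ADAM12 and ADAM19 fell in resistant 786-O by log2 -0.66 ± 0.05 (1.3e-08) and -1.22 ± 0.10 (6.3e-08), while ADAM9 rose by 0.54 ± 0.06 (1.1e-06). Of the 5 tested ADAMTS-like genes, which lack the protease domain, 4 were higher and 1 lower in resistant 786-O, 5 and 0 in resistant A498 against 786-O, and 4 and 0 against A498 (medians 1.06, 0.945 and 1.58). THSD4 and ADAMTSL5 rose by log2 2.06 ± 0.06 (1.4e-12) and 1.96 ± 0.08 (2.7e-11).

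AP-1 and ETS proteins are known to bind many MMP promoters. Of the 12 genes in this list, 1 was higher and 6 lower in resistant 786-O, 1 and 6 in resistant A498 against 786-O, and 4 and 7 against A498 (medians -0.374, -0.3 and -0.653). FOSL1 fell from 308 ± 0.876 CPM (SD, n = 3) in 786-O to 194 ± 24 in resistant 786-O (log2 -0.66 ± 0.07, adjusted p = 5.2e-07) and was at 120 ± 5.47 in A498 and 161 ± 2.66 in resistant A498. ETS1 fell from 329 ± 2.93 to 224 ± 7.8 CPM (log2 -0.56 ± 0.04, adjusted p = 2.8e-08). Of the matrix substrates, 13 of 18 genes were tested, with 9 higher and 3 lower in resistant 786-O, 7 and 3 in resistant A498 against 786-O, and 8 and 3 against A498 (medians 0.791, 0.549 and 1.2). Fibronectin (FN1) fell in resistant 786-O (log2 -1.71 ± 0.12, adjusted p = 1.2e-08) and the basement membrane proteoglycan perlecan (HSPG2) rose (log2 1.18 ± 0.10, adjusted p = 4.4e-08).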

How the data were processed

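The authors deposited raw gene counts of 12 mRNA libraries, without normalization. According to the study's methods and the submitters' processing notes, reads were trimmed (Trimmomatic 0.36.6), aligned to GRCh38 (HISAT2 2.1.0) and counted over exons of GENCODE 33 (featureCounts 1.6.3). Total counts were 20042519 to 47972092 per library. Precision is given as the SD of 3 libraries for levels and ratios. For log2 fold changes it is the SE of the model, whose estimate of spread is shared by all 12 libraries. Libraries were grouped by their titles.

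Genes were filtered with filterByExpr, normalized by TMM and fitted in 1 quasi-likelihood model of 4 group means (R 4.3.3, edgeR 4.0.16, prior count 0.125), with Benjamini-Hochberg adjustment over 19929 genes and a threshold of 0.05. The code was tested on simulated data. Levels are CPM of normalized library size, per kilobase of GENCODE 44 exons where genes are compared, and a floor of 3 counts was used over a group. Promoters came from a RefSeq table. Tables and figures used Python 3.11.15, pandas 2.3.3, SciPy 1.17.1 and matplotlib 3.10.9.

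The members, lists and tests were chosen with earlier results of these data known. Library values are given for members whose mean reached 5 CPM in some group, or 1 CPM together with an absolute log2 fold change over 2 with an adjusted p under 0.05 in a pairwise comparison. From each list, up to 4 genes with the largest changes against 786-O were eligible to be named, among those called with at least 5 CPM in the higher group. Further genes were named after their values were seen: MMP3, MMP11, MMP17, MMP19, MMP21, MMP25, MMP28, ADAMTS8, ADAMTS18, TIMP3 and TIMP4. Same-numbered replicates of different groups correlated at -0.184 to 0.201 in their deviations. Alternatives were library size alone, DESeq2 1.42.0, no filter, at least 10 counts in every library, only the groups compared, the replicate number as a block, a prior count of 2, a minimum log2 fold change of 1, the study's 2-sample test of raw counts without adjustment, 0.5 or 5 CPM as the level of expression, and leaving out each library.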

Additional observations from a re-analysis of the deposited data

Results flagged for a closer look

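The interaction term of the edgeR model compared the change of resistant A498 from A498 with that of resistant 786-O from 786-O. It passed for 20 of the 25 members given in every library. The values are differences of log2 fold changes, positive where the resistant A498 change was the higher. Among the MMPs the difference was 4.50 for MMP2, -4.60 for MMP7, -5.46 for MMP10, -0.51 for MMP14, -3.44 for MMP15, 2.41 for MMP16 and -0.30 for MMP24. Among the ADAMTS genes it was 1.55 for ADAMTS1, -1.78 for ADAMTS2, 1.96 for ADAMTS3, 5.38 for ADAMTS5, 2.77 for ADAMTS6, -6.16 for ADAMTS7, 2.11 for ADAMTS9, -4.34 for ADAMTS12, -4.80 for ADAMTS13, -6.33 for ADAMTS14 and -2.27 for ADAMTS15. ADAMTS10 gave -8.78, with no more than 4 counts in total in 786-O and fewer in resistant 786-O and resistant A498, and did not pass without resistant 786-O replicate 1 (-7.21, adjusted p = 0.97). Among the inhibitors TIMP2 gave -1.53. Of the 33 tested members, 26 (78.8%) passed in this comparison, and of all genes tested 68.3%. The 25 were picked by their level or the size of their changes in these data. Their count is thus not comparable with these shares. The resistant A498 libraries resemble resistant 786-O more than A498, and the part of this in the values was not tested. No outlier test was run on the members, with only 3 libraries in each group. Leaving out 1 library moved 3 more of these differences by over 1.5-fold: MMP10 to -6.89 without resistant A498 replicate 2, ADAMTS12 to -3.53 without resistant 786-O replicate 2 and ADAMTS14 to -7.14 without 786-O replicate 3. ADAMTS10 was at -11.06 without resistant A498 replicate 1. Some differences that did not pass did so without 1 library. Without resistant 786-O replicate 2, MMP1 went from 0.61 to 1.07 (adjusted p = 3.9e-05) and MMP13 from 1.08 to 2.00 (0.0067). MMP9 (-0.68) passed without 786-O replicate 3 (0.044), resistant 786-O replicate 1 (0.026) or A498 replicate 2 (0.028). TIMP1 (-0.20) passed without resistant 786-O replicate 1 (0.037).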

How the results depend on the processing

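The number of members called stayed within 1.5 times its value under every alternative run, except in resistant A498 against 786-O with at least 10 counts in every library (15 against 23, with fewer genes tested) and in resistant A498 against resistant 786-O with a minimum log2 fold change of 1 (11 against 21). Leaving out each library gave 26 to 27 (resistant 786-O against 786-O), 24 to 28 (resistant A498 against A498), 22 to 23 (resistant A498 against 786-O), 27 to 31 (786-O against A498), 16 to 21 (resistant A498 against resistant 786-O) and 26 to 28 (difference of changes). Without resistant 786-O replicate 2, the library that stood apart, they were 26, 28, 23, 31, 21 and 28 in this order. With the replicate number as a block, whose numbers do not pair the samples, the counts were 26, 25, 23, 30, 20 and 26 in the same order. Scaling by library size alone moved the median of all genes to 0.18 in resistant 786-O and 0.15 in resistant A498 against 786-O and turned the sign of values near 0: 0.0154 for MMP7 and 0.0903 for MMP24 in resistant 786-O, 0.0592 for TIMP1 in resistant A498 against A498, 0.1127 for ADAMTS3 in resistant A498 against 786-O and -0.0117 for ADAMTS16 in 786-O against A498. Leaving out single libraries turned the sign of values that were not called. The ranges were -0.2875 to 0.0722 for MMP7 and -0.0852 to 0.005 for MMP24 in resistant 786-O against 786-O, -0.0349 to 0.0569 for TIMP1 in resistant A498 against A498, -1.38 to 0.59 for MMP10 and -0.0812 to 0.0003 for ADAMTS3 in resistant A498 against 786-O, and -0.21 to 0.20 for ADAMTS6 and -0.046 to 0.1644 for TIMP1 in resistant A498 against resistant 786-O.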
